A study of Homo sapiens with 4 samples.

Results

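Of 62893 genes in the count table, 249 are protein-coding genes of chromosome 19 whose symbol is ZNF followed by a digit, and these are the genes described here. They were chosen by symbol, coding class and chromosome, and no measured value enters that rule. The family was nevertheless picked with results of these same libraries known, so its counts and fold changes are a description and not independent evidence. Counts were high enough to test 208 of the 249 genes (83.5%). Of the 41 others, 10 had no count in any library, and none of the 41 exceeded 0.212 CPM (counts scaled to the same library size) in any library.

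ZNF genes encode proteins with a row of C2H2 zinc fingers, small zinc-binding folds that each read a few bases of DNA. Successive fingers are usually joined by a short linker of threonine, glycine, glutamate, lysine and proline, and its codons recur many times along one coding sequence. Most chromosome 19 members also carry a KRAB box, which recruits the corepressor TRIM28 and, through it, the histone methyltransferase SETDB1. They lie in runs of duplicated neighbours, and many of the proteins bind and silence transposable elements.

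The cells were T24, a line derived from a human bladder carcinoma. They received siRNA against NSUN2 (siNSUN2, 2 libraries) or control siRNA (siControl, 2 libraries), and polyadenylated RNA was sequenced. NSUN2 is a cytosine methyltransferase of tRNAs and other RNAs. No label gives the siRNA sequences or the time after transfection, and none says that the libraries of a group came from separate cultures, so p-values measure only the spread between these libraries. NSUN2 itself stood at 29.6 and 30.1 CPM in siNSUN2 cells and at 281 and 284 CPM in siControl cells (log2 fold change −3.24, SE 0.043, edgeR adjusted p = 1.64e-09).

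Library totals were 92640839 and 33633249 counts in siNSUN2 and 42298529 and 215936965 in siControl, so 1 CPM was worth between 34.2 and 213 counts. Correlations of expression between libraries were 0.987 and 0.988 within the groups and 0.971 to 0.975 between them. The epithelial keratins KRT7, KRT8 and KRT18 were abundant, whereas KRT19, EPCAM, CDH1, KRT5 and UPK3A were at or near 0. PPARG had 23.5 and 22.5 CPM in siNSUN2 and 14.4 and 13.7 CPM in siControl, and UPK1B had 1.62 and 2.07 CPM in siNSUN2 and 3.86 and 4.18 CPM in siControl, so the urothelial list was not uniformly low. Of the same list, UPK2 and GATA3 had at most 0.212 and 0.494 CPM in any library. The mesenchymal marker VIM had 1768 and 1755 CPM in siNSUN2 and 1020 and 1051 CPM in siControl. Of the blood markers, PTPRC had 0.0436 and 0.584 CPM in siNSUN2 and 0 and 0.0188 CPM in siControl, and HBB had 0 and 2.66 CPM in siNSUN2 and 0 and 0.188 CPM in siControl. The 3 endothelial markers summed to 2.37 and 10.6 CPM in siNSUN2 and to 0.635 and 0.395 CPM in siControl, and the 3 fibroblast markers to 3.05 and 3.48 CPM in siNSUN2 and to 0.871 and 2.02 CPM in siControl. The endothelial marker PECAM1 had no count in any library. The part of these markers in the results was not tested.

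The sequences that the results turn on are stretches of 27 coding bases over a finger linker. Capitals mark 7 bases, from the second base of the lysine codon through proline to the second base of the following tyrosine codon. In the linker printed for each of the first 5 genes these bases read AACCCTA. An earlier search of these same libraries had found this word in genes with lower counts. It sits in 9 of the 15 linkers of ZNF420, 4 of 11 in ZNF30 and 4 of 14 in ZNF569. In ZNF440 it sits in 1 of 3 linkers, and in ZNF91 in 12 of 18. The first 4 are the members with the largest called falls above an average log2 CPM of 1, and ZNF91 is the called member with the most copies of the word.
ZNF420: catactggtgaaaAACCCTAtgaatgt
ZNF30: catactggcgagaAACCCTAtgaatgt
ZNF569: catacaggtgaaaAACCCTAtgaatgt
ZNF440: cacactggagagaAACCCTAtgagtgt
ZNF91: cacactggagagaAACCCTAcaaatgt
The next 5 genes have 14 or more linkers and no copy of AACCCTA. The linker printed for each has AACCTTA at the same place, which encodes the same amino acids. That spelling is in 17 of 18 linkers of ZNF845, 13 of 15 of ZNF160 and 10 of 15 of ZNF347. In ZNF836 it is in 8 of 15, and in ZNF888 in 9 of 14.
ZNF845: cacactggcaagaAACCTTAcaagtgt
ZNF160: catactggagaaaAACCTTAcaaatgt
ZNF347: cacactggagagaAACCTTAtaaatgt
ZNF836: cacactggagagaAACCTTAcaaatgt
ZNF888: cacactggtgagaAACCTTAcatgtgt

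Chromosome 19 ZNF genes were lower in siNSUN2 cells far more often than higher. Of the 208 tested, 115 fell, 19 rose and 74 were not called by edgeR's quasi-likelihood test with Benjamini-Hochberg adjustment over all 16889 genes tested (threshold 0.05). Over all genes, 25.5% were called lower and 27.1% higher, and over all coding genes 30.7% and 33.6%. The median log2 fold change of the members was −0.39, with the middle of the distribution between −1.02 and 0.05, and that of all genes was 0.03. Both siNSUN2 libraries lay below both siControl libraries in 136 members and above both in 43, beside 36.0% and 38.6% of all genes. Falls of 2-fold or more were called in 52 members and rises of that size in 1, beside 3.99% and 5.50% of all genes. Summed over all 249 members, tested or not, CPM came to 2387 and 2350 in siNSUN2 and to 3306 and 3336 in siControl.

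GC content moved with the fold changes in these libraries, and the members' transcripts spanned 33.5% to 71.1% GC. With each library corrected for loess trends against GC and transcript length (offsets in the fit, hereafter "with GC and length taken off"), the members' median was −0.21, 91 members were called lower and 23 higher, and 88 of the 115 falls remained. In bulk RNA, fewer transcripts per cell and fewer cells that express a gene cannot be told apart.

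The largest fall was that of ZNF420, known as Apak, a KRAB protein that holds back p53 target genes of apoptosis. ZNF420 had 3.08 and 2.60 CPM in siNSUN2 cells and 19.5 and 17.9 CPM in siControl cells. The groups were far apart (log2 fold change −2.70, SE 0.11, edgeR adjusted p = 1.35e-07), and with GC and length taken off the change was −2.40.

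ZNF30 followed, with 1.97 and 1.90 CPM in siNSUN2 and 8.26 and 7.71 CPM in siControl (−2.04, SE 0.13). ZNF569 had 7.39 and 7.59 CPM in siNSUN2 and 29.1 and 27.6 CPM in siControl (−1.92, SE 0.068). ZNF440 had 5.59 and 5.87 CPM in siNSUN2 and 19.9 and 19.4 CPM in siControl (−1.78, SE 0.076). In these 3 genes, as in ZNF420, the replicates of a group differed little beside the distance between the groups. Among members with an average log2 CPM of at least 1, a limit that holds for all ranks of falls and rises given here, the 8 next largest falls, of ZNF14, ZNF426, ZNF724, ZNF93, ZNF45, ZNF100, ZNF253 and ZNF254, ran from −1.76 to −1.59, and the counts of ZNF724 are uncertain because its exons overlap another gene or share sequence with one. With GC and length taken off, all 12 were still called lower, by 1.24 to 2.40 on the log2 scale. Each of the 12 encodes a KRAB box and carries 3 to 11 copies of AACCCTA.

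**Figure D1:**
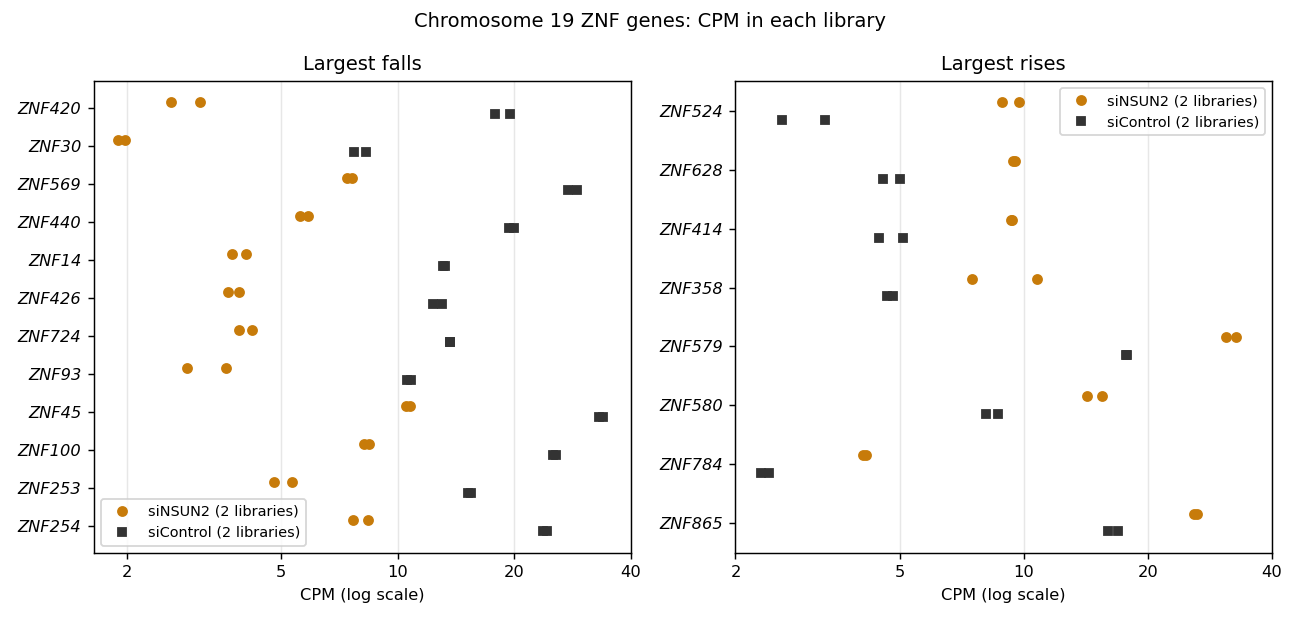
CPM on a log axis for the 12 members with the largest called falls (left) and the 8 with the largest called rises (right), among members with average log2 CPM of at least 1 whose groups do not overlap. Circles are the 2 siNSUN2 libraries and squares the 2 siControl libraries, and ZNF420 shows the widest gap, with 3.08 and 2.60 CPM in siNSUN2 against 19.5 and 17.9 CPM in siControl.

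Several members with known targets were among the falls. ZNF93, which represses LINE-1 retrotransposons, had 3.59 and 2.86 CPM in siNSUN2 and 10.8 and 10.6 CPM in siControl (−1.71, SE 0.13). ZNF91, a repressor of SVA elements, had 10.1 and 11.6 CPM in siNSUN2 and 26.1 and 25.7 CPM in siControl (−1.26, SE 0.077). In both genes the groups did not overlap.

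ZNF675, an inhibitor of TRAF6 signalling, had 9.54 and 9.38 CPM in siNSUN2 and 22.9 and 20.7 CPM in siControl (−1.20, SE 0.076). ZNF558, a repressor of the mitophagy gene SPATA18, had 9.19 and 9.17 CPM in siNSUN2 and 22.7 and 21.3 CPM in siControl (−1.26, SE 0.070). ZNF331, an imprinted gene, had 21.1 and 20.8 CPM in siNSUN2 and 42.3 and 43.8 CPM in siControl (−1.04, SE 0.053). In all 3 genes the groups did not overlap, and all 3 were called lower by edgeR also with GC and length taken off. ZNF544 had 24.3 and 22.4 CPM in siNSUN2 and 62.1 and 61.6 CPM in siControl (−1.40), with uncertain counts.

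Other members with known roles were higher, were not called or kept no call with GC and length taken off. ZNF274, which brings SETDB1 to the 3′ ends of ZNF genes, had 36.2 and 34.6 CPM in siNSUN2 and 29.7 and 29.1 CPM in siControl (0.27, SE 0.053, edgeR adjusted p = 0.00197). ZNF417 and ZNF587, near-identical repressors of HERV-K elements with uncertain counts, gave 0.19 (SE 0.087) and 0.03 (SE 0.055) and were not called, although both were called higher with GC and length taken off (0.36 and 0.16). ZNF224, a repressor of aldolase A with uncertain counts, was called lower at −0.25, and its value was 0.0086 and not called with GC and length taken off. ZNF382 was below 0.9 CPM in every library and was not called (−0.09, SE 0.30). ZNF154, ZNF671 and ZNF649 had at most 0.117 CPM in any library and could not be tested.

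Per kilobase of the gene's merged exons, the most abundant member was ZNF146, a protein made almost wholly of fingers with no KRAB box. ZNF146 had 110 and 105 CPM in siNSUN2 and 233 and 234 CPM in siControl (−1.12, SE 0.041), and its counts are uncertain. ZNF317, the second, had 64.6 and 63.3 CPM in siNSUN2 and 60.1 and 62.3 CPM in siControl and was not called (0.06, SE 0.043). ZNF787, the third, had 48.0 and 46.8 CPM in siNSUN2 and 35.7 and 34.5 CPM in siControl (0.43), a direction that reversed to −0.38 with GC and length taken off.

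The 19 rises of the main fit were of another kind of member: 15 lacked a KRAB box, 18 had transcripts over 50% GC, and none held AACCCTA in its coding sequence. That profile did not hold with GC and length taken off. Of the 23 members then called higher, 16 had a KRAB box and 7 lacked one. Only 6 had transcripts over 50% GC, and 2 held the word. ZNF524, which binds telomeric DNA, had 8.88 and 9.73 CPM in siNSUN2 and 2.59 and 3.29 CPM in siControl (1.65, SE 0.14), with uncertain counts, and it still rose with GC and length taken off (1.09). ZNF414 had 9.32 and 9.38 CPM in siNSUN2 and 5.08 and 4.46 CPM in siControl (0.98, SE 0.11, 0.53 with GC and length taken off). ZNF579 had 32.7 and 30.9 CPM in siNSUN2 and 17.7 and 17.8 CPM in siControl (0.85, SE 0.059, 0.24 with GC and length taken off).

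The other 5 of the 8 largest rises were less firm. ZNF580 (0.82, uncertain counts) was still called at 0.42 with GC and length taken off. ZNF628 (0.98), ZNF358 (0.95, uncertain counts) and ZNF784 (0.80) were no longer called, at 0.14, 0.20 and 0.25. ZNF865 (0.67) turned to −0.21. Of all 19 rises, 7 held with GC and length taken off, 10 were no longer called and 2, ZNF787 and ZNF865, were called lower.

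Copies of AACCCTA, a word picked from these same libraries, went with the size of the fall when counted in the coding sequence. The word was searched on the sense strand of 1 coding sequence per gene, and 58.7% of tested members held it, beside 44.9% of tested ZNF genes on other chromosomes, 3.29% of other coding genes of chromosome 19 and 6.92% of all coding genes. Among the 86 members with 0 copies, 20 fell and 19 rose, with a median log2 fold change of 0.05. With 1 copy, 15 of 28 fell (median −0.30). With 2 to 4 copies, 27 of 36 fell (−0.73), and with 5 or more, 53 of 58 fell (−1.13). No member with a copy was called higher. With GC and length taken off, the 4 medians were 0.08, −0.11, −0.49 and −0.86, and 78 of the 122 members with a copy were called lower and 2 higher, ZNF726 (11 copies, 0.40) and ZNF841 (3 copies, 0.41). The median at 0 copies was −0.0065 without siNSUN2 replicate 1 and −0.015 without siControl replicate 1. Its sign is thus not settled by these libraries. Over all tested coding genes, members included, 3357 of 11730 fell with 0 copies (median 0.06) and 343 of 668 with 1 (−0.21). With 2 to 4 copies 91 of 120 fell (−0.68), and with 5 or more 75 of 84 (−1.15). Of the 668 genes with 1 copy, 28 were members and 33 were ZNF genes on other chromosomes. Other coding genes of chromosome 19 with 1 copy went the other way, with 3 of 21 lower and 9 higher. The order by copies was thus not particular to the members.

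Summed over the members with the word, CPM came to 1083 and 1074 in siNSUN2 and to 1999 and 2003 in siControl. Summed over the members without it, CPM came to 1304 and 1276 in siNSUN2 and to 1306 and 1333 in siControl. The first pair of sums was far apart and the second lay close together.

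**Figure D2:**
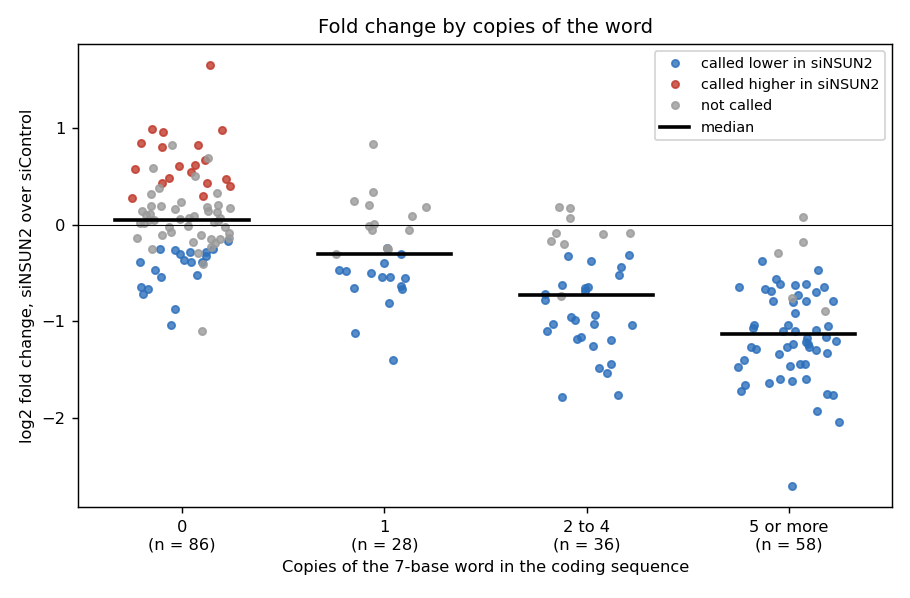
Log2 fold change of siNSUN2 over siControl for the 208 tested members, grouped by copies of the 7-base word in the coding sequence. Points are genes coloured by their call and bars are medians, which stood at 0.05, −0.30, −0.73 and −1.13 for 0, 1, 2 to 4 and 5 or more copies.

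Some single genes stood apart from the order by copies. ZNF91, with 24 copies, fell by 1.26 on the log2 scale, ZNF493, with 15 copies, by 0.64 and ZNF708, with 13 copies, by 0.92, each less than ZNF440 with 3 copies. ZNF850, with 17 copies, had 5.53 and 4.67 CPM in siNSUN2 and 6.12 and 6.43 CPM in siControl and was not called (−0.29, edgeR adjusted p = 0.0883). ZNF726, with 11 copies, had 8.56 and 8.24 CPM in siNSUN2 and 8.12 and 7.80 CPM in siControl and was not called (0.08), although it was called higher at 0.40 with GC and length taken off. ZNF682, with 7 copies, had 6.56 and 6.22 CPM in siNSUN2 and 7.37 and 7.09 CPM in siControl and was not called (−0.18, SE 0.11). ZNF20, with 7 copies and uncertain counts, was below 0.4 CPM in every library and was not called (−0.76, SE 0.51).

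The word sat mainly in the finger linker. Of 587 copies in the tested coding sequences, 411 (70.0%) fell exactly on the linker bases shown in capitals above, and 565 (96.3%) lay in the same reading frame. The pattern that found linkers also allowed arginine in place of the lysine and phenylalanine in place of the tyrosine. Of the 1420 linkers of tested members found in this way, 28.9% carried the word. Across the 208 members, the number of linkers with the word ran with the log2 fold change at Spearman rho −0.72, whereas the number of linkers spelled otherwise gave 0.01. That last value pools spellings that went both ways, such as AACCTTA (−0.30), AACCCTT (−0.27) and AACCATA (−0.20) on one side and GGCCTTA (0.26) and GGCCCTA (0.31) on the other. These correlations are descriptions across genes that share libraries, sequence and base composition. The word was picked in an earlier search of these same libraries, so its lead over other spellings is not independent support. Among members with 5 or more linkers, 51 of 56 with 5 or more copies fell (median −1.13), against 16 that fell and 5 that rose of 49 with 0 copies (−0.11).

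**Figure D3:**
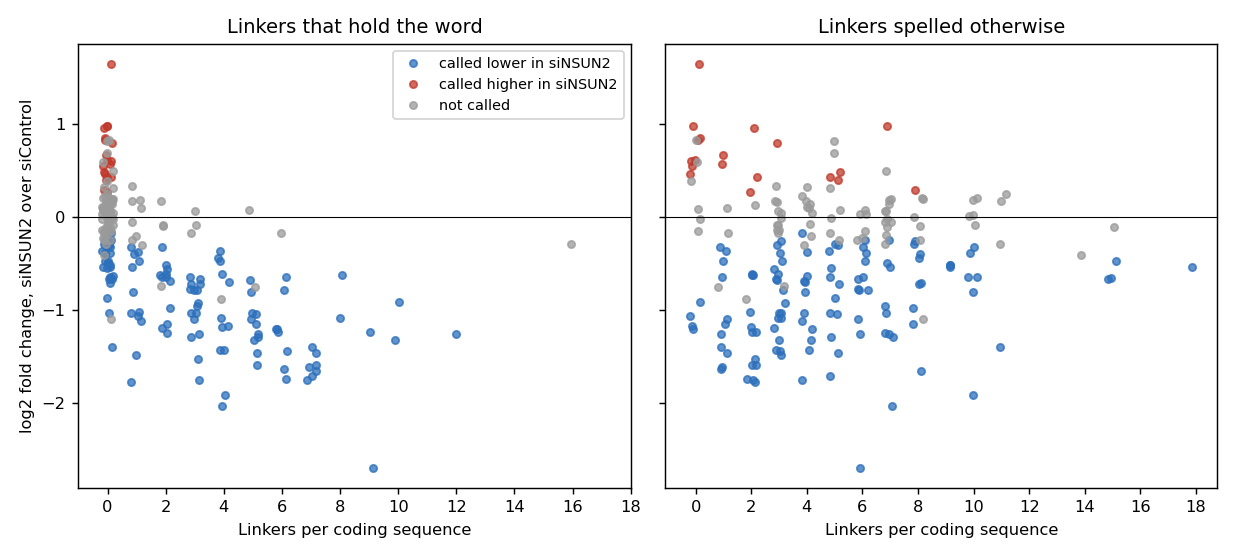
Log2 fold change of siNSUN2 over siControl against the number of linkers per coding sequence that hold the 7-base word (left) and that are spelled otherwise (right), for the 208 tested members. Points are genes with a small horizontal jitter, coloured by call. Values decline to the right in the left panel (rho −0.72), whose word was picked from these same libraries. The right panel pools several spellings, some of which encode other amino acids, and shows no common trend (rho 0.01).

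AACCTTA, the spelling of ZNF845 and its neighbours, was the next most frequent, in 293 linkers. Of 18 tested members with 0 copies of AACCCTA and 3 or more AACCTTA linkers, 11 fell and none rose (median −0.40, or −0.16 with GC and length taken off). Of 58 with neither spelling in a linker, 5 fell and 18 rose (median 0.18, or 0.16 with GC and length taken off). The members of the first kind include ZNF347, with 23.1 and 24.8 CPM in siNSUN2 and 37.5 and 38.2 CPM in siControl (−0.66, SE 0.057). ZNF845 had 16.9 and 16.8 CPM in siNSUN2 and 25.04 and 24.09 CPM in siControl (−0.54, SE 0.060). ZNF160 gave −0.47 (SE 0.056), and ZNF888 (−0.41, SE 0.23) and ZNF836 (−0.10, SE 0.15) were not called. AACCATA, in 112 linkers, was found in 2 or more linkers of 10 members without AACCCTA, and their median was also −0.40. GGCCTTA, which encodes arginine in place of lysine, was in 76 linkers. It was the spelling of 15 members without AACCCTA that had 2 or more such linkers, and their median was 0.03.

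The largest called fall without the word in the coding sequence was that of ZNF525, with 16.74 and 15.04 CPM in siNSUN2 and 31.1 and 34.1 CPM in siControl (−1.03, SE 0.075). ZNF284 (−0.87, uncertain counts), ZNF480 (−0.71) and ZNF28 (−0.64) were also lower without a coding copy, and ZNF284 and ZNF28 each hold 1 copy of AACCCTA in the 3′ UTR. These 4 genes, and ZNF682, ZNF841 and the gene ZIK1 of another list, were chosen after their values were seen.

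Members with more copies had lower GC content (Spearman rho −0.50 across 208 members). Within 40% to 50% GC, the medians were −0.11 in 49 members with 0 copies, −0.30 in 24 with 1, −0.67 in 24 with 2 to 4 and −1.13 in 26 with 5 or more. These became 0.08, −0.11, −0.48 and −0.89 with GC and length taken off. Under 40% GC, 4 of 9 members with 0 copies fell (median −0.23) and 28 of 31 with 5 or more copies fell (−1.17). With GC and length taken off, the first median turned to 0.04, with 2 lower and 2 higher, and the second was −0.83. Over 50% GC, 2 of 32 members fell and 18 rose (0.47, or 0.08 with GC and length taken off). Among the 86 members with 0 copies, GC ran with the fold change at rho 0.66, and at 0.04 with GC and length taken off. Over all 208 members GC gave 0.59 and 0.40, and over the 122 with a copy 0.36 and 0.27, without and with that correction. Copy number against fold change in all 208 members gave −0.74 and −0.68, in the same order.

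**Figure D4:**
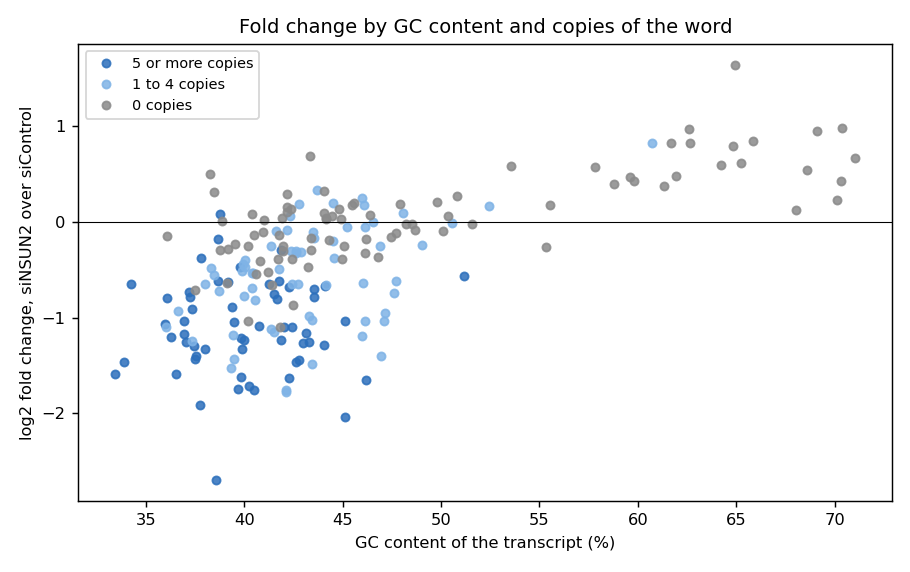
Log2 fold change of siNSUN2 over siControl against GC content of the transcript for the 208 tested members, coloured by copies of the 7-base word. Members with 5 or more copies (dark blue) lie mostly below 0 at all GC contents they cover, and members without a copy (grey) rise with GC.

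The 3′ UTR was looked at as well, for the shorter word ACCCTA, which 53 tested members held there. Members with a coding copy of AACCCTA had a median of −1.17 with the 3′ UTR word (35 of 39 fell) and of −0.65 without it (60 of 83 fell). With GC and length taken off, these medians were −0.94 and −0.44. Those sets also differed in median coding copies (5 and 4) and median GC (40.6% and 42.2%), and the part of each was not tested. Members with no coding copy had a median of −0.05 with it (4 of 14 fell, 2 rose) and of 0.06 without it (16 of 72 fell, 17 rose).

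By protein type, a KRAB box was found in 211 members, 175 of them tested. Of those 175, 108 fell and 4 rose (median −0.52), and of the 33 tested members without one, 7 fell and 15 rose (0.47). With GC and length taken off, KRAB members had a median of −0.28, with 82 lower and 16 higher. Those without KRAB had 0.07, with 9 lower and 7 higher. Split by the word, KRAB members with a copy had a median of −0.78 (89 of 113 fell) and those without one of −0.11 (19 of 62 fell, 4 rose). Members lacking KRAB had a median of −0.69 with a copy (6 of 9 fell) and of 0.58 without one (1 of 24 fell, 15 rose), and this last group had a median GC content of 63.4%. With GC and length taken off, the medians with a copy were −0.54 for KRAB members and −0.48 for those lacking KRAB. Without a copy they were 0.06 for KRAB members (9 lower, 14 higher) and 0.15 for those lacking KRAB (4 lower, 7 higher). The number of fingers, with a median of 12, ran less closely with the fold change (rho −0.34). In members with 14 or more fingers, the median was −1.04 with 2 or more copies (42 of 48 fell) and −0.08 with none (8 of 23 fell, 4 rose). In members with 10 to 13 fingers, the same medians were −1.16 (31 of 35 fell) and 0.04 (5 of 27 fell, 1 rose). In members with 6 to 9 fingers they were closer, at −0.37 (7 of 11 fell) and 0.06 (7 of 24 fell, 6 rose), and with GC and length taken off they were −0.08 and 0.05.

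Along the chromosome, members were grouped into 10 runs with at least 5 members and at most 5 other coding genes between neighbours. The run from ZNF101 to ZNF254 stood lowest, with 21 of 24 tested members called lower, a median of −1.22 and a mean of 8.58 copies of AACCCTA. The run from ZNF565 to ZNF573, which holds ZNF420 and ZNF569, had 21 of 26 lower (−1.01, mean 4.69 copies). From ZNF653 to ZNF791, 16 of 22 were lower and 1 was higher (−0.78, mean 5 copies).

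The run from ZNF577 to ZNF331 had 21 of 33 lower and 1 higher at a median of −0.47, with a mean of 0.758 copies. It holds ZNF845, ZNF160, ZNF347, ZNF836 and ZNF888, the genes spelled AACCTTA above. The run from ZNF283 to ZNF180 had 11 of 19 lower (−0.29), but its median was −0.0059, with 6 lower and 2 higher, with GC and length taken off. The run from ZNF787 to ZNF446 had 7 lower and 6 higher of 41 (0.07, mean 0.341 copies). From ZNF628 to ZNF581, all 7 members were higher (0.82) with 0 copies and a median GC of 64.9%. With GC and length taken off, that run's median was 0.24, with 3 members called higher and 1 lower.

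**Figure D5:**
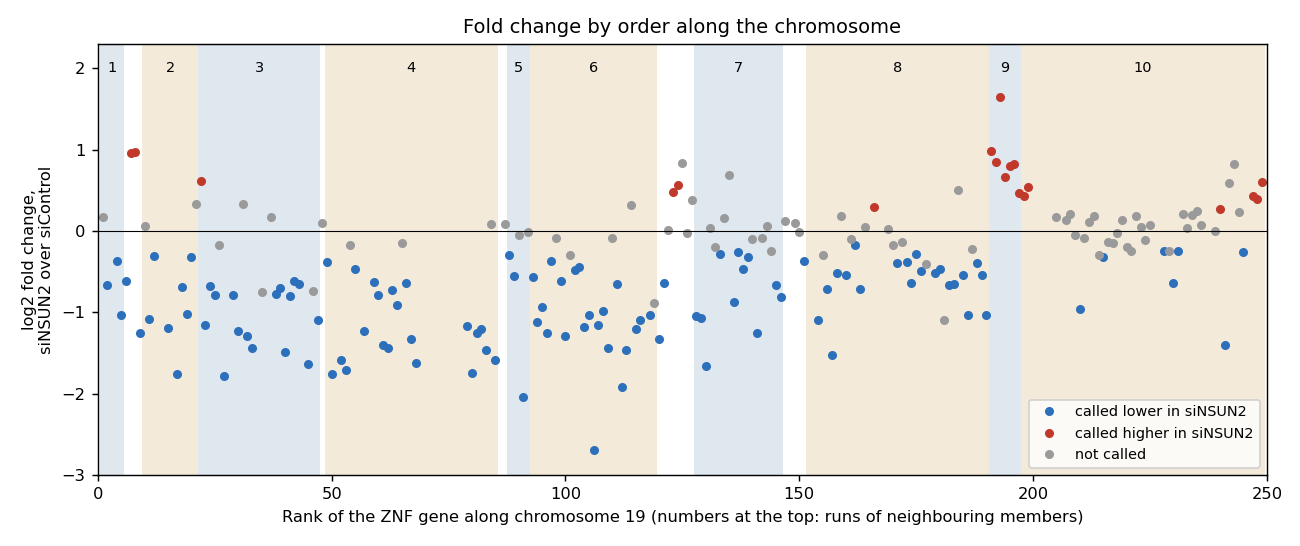
Log2 fold change of siNSUN2 over siControl against the rank of the ZNF gene along chromosome 19, for the 208 tested of 249 members. Shaded bands numbered at the top are the 10 runs of neighbours, of which the fourth (ZNF101 to ZNF254, median −1.22) lies lowest and the ninth (ZNF628 to ZNF581, median 0.82) highest.

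Set beside other genes, in ZNF genes on other chromosomes 116 of 214 tested fell (54.2%, beside 55.3% of the members). Rises were called in 40 (18.7%, beside 9.13% of the members). Their median was −0.27, beside −0.39 for the members, and with GC and length taken off both medians were −0.21. After the GC and length correction, 99 of those 214 were called lower and 29 higher. Their medians by copies of AACCCTA were −0.01, −0.31, −0.96 and −1.17. The other 729 tested coding genes of chromosome 19 went the other way, with 50 lower and 443 higher (median 0.46, and 0.07 with GC and length taken off, at a median GC of 61.0%). Their counts were 150 lower and 223 higher after the same correction. ZNF pseudogenes of chromosome 19 numbered 18, of which 5 were tested and 4 were called lower. No test was made of the difference between these groups and the members.

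A list of 14 other zinc finger genes of chromosome 19, with ZFP, ZSCAN, ZIM and related names, gave 6 tested genes, of which 4 fell, 1 was called higher and 1 was not called, beside 30.7% of coding genes called lower and 33.6% higher. The higher one, ZIK1 (0.26, edgeR adjusted p = 0.0488), lost its call on leaving out any 1 library. ZFP82 had 4.11 and 4.21 CPM in siNSUN2 and 10.5 and 10.7 CPM in siControl (−1.35, SE 0.10) and carries 5 copies of AACCCTA. ZFP30 had 17.03 and 16.88 CPM in siNSUN2 and 37.7 and 37.9 CPM in siControl (−1.15, SE 0.055) and carries 4 copies.

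Partners of KRAB proteins were followed in a list of 34 corepressor genes, of which 33 were tested: 18 fell, 5 rose and 10 were not called, with a median of −0.20. Over all coding genes, 30.7% were called lower and 33.6% higher. With GC and length taken off, the list's median was −0.08, with 15 lower and 3 higher. TRIM28 had 396 and 359 CPM in siNSUN2 and 335 and 322 CPM in siControl and was called higher (0.20, SE 0.053), a direction that reversed to −0.31 with GC and length taken off. SETDB1 had 35.0 and 35.1 CPM in siNSUN2 and 36.5 and 35.6 CPM in siControl and was not called (−0.04, SE 0.049). Among genes of heterochromatin proteins, CBX3 fell (203 and 195 CPM in siNSUN2, 346 and 339 in siControl, −0.78) and CBX5 rose (229 and 226 CPM in siNSUN2, 161 and 166 in siControl, 0.48). CBX1, of the same list and added after its value was seen, was also called lower (−0.38, or −0.24 with GC and length taken off). The remodeller gene CHD4 fell (−0.58) and its paralogue CHD3 was called higher (0.24, or −0.01 with GC and length taken off). PPHLN1, of the HUSH silencing complex, fell (−0.51), and MBD3 of the NuRD complex was called higher (0.84, or 0.19 and not called with GC and length taken off).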

How the data were processed

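The authors' deposited table gives raw read counts per Ensembl gene for the 4 libraries. Per the labels' protocols, libraries came from poly(A)-selected RNA with a stranded kit, and per the submitters' processing notes the tools were HISAT2 and HTSeq on hg19. No source used here gives the strand setting or the annotation behind them. Members and lists were chosen with earlier results of these data known. One blood marker is not reported here.

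Counts were fitted with edgeR 4.0.16 (TMM, filterByExpr, robust quasi-likelihood test, Benjamini-Hochberg over 16889 genes, 2 libraries a group, no covariate). CPM use TMM library sizes. The kept genes hold 99.96% of counts, and depth sets the precision of low genes. A test on simulated counts was run first. Symbols, chromosome, gene order and transcript sequence came through gene IDs from GENCODE release 29, which is on GRCh38, so no coordinates are given. AACCCTA was counted on the sense strand, overlaps allowed, in 1 coding sequence per gene. KRAB boxes, fingers and linkers were found by pattern in the translated sequence. Counts were called uncertain where over 10% of 100-base words or exon bases are shared with another gene (63 tested members).

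Named genes were NSUN2, the 12 largest called falls and 8 largest called rises with average log2 CPM of at least 1 and groups that do not overlap, the 3 members most abundant per kilobase, the 3 called and 3 not called lower with the most word copies, 15 fixed members, and up to 3 corepressors each way. Alternatives included DESeq2 1.42.0, limma-voom 3.58.1, other scalings and filters, a replicate block, GC and length offsets, thinning and leaving out each library.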

Additional observations from a re-analysis of the deposited data

How the results depend on the processing

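Over all alternatives on the full member list, 91 to 122 members were called lower and 15 to 25 higher. DESeq2 called 106 lower and 17 higher and limma-voom 120 and 25. With the replicate number as a block (replicate block), 122 were lower and 20 higher, and the same 115 falls were kept. Same-numbered libraries deviated together with a correlation of 0.171, and 2 pairs are too few to take the numbers as pairing. Leaving out one library gave 100 to 116 lower and 17 to 18 higher, with the lone library left in its group assumed to vary like the other group's. GC and length offsets gave 91 and 23. Against a fold of 1.2, 91 and 15 members passed, with 2529 and 2913 of all genes.

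The members' median of −0.39 was −0.30 with no filter, −0.43 at 1 CPM or more, −0.43 in thinned libraries, −0.43 at average log2 CPM of 2 or more, −0.36 over members with 10 or more counts, −0.21 with offsets, −0.21 with block and offsets, −0.48 without members of uncertain counts (11 then higher), and −0.45 to −0.39 on leaving out one library. By copies (0, 1, 2 to 4, 5 or more), offsets gave 0.078, −0.11, −0.49 and −0.86, and leaving out one library gave −0.015 to 0.087, −0.45 to −0.31, −0.77 to −0.74 and −1.17 to −1.13. With the word followed by A, the medians were −0.37, −0.96, −1.16 and −1.26, since members with other copies then count as 0. In the reading frame of the linker that A would make a stop codon, so none of the 565 copies in that frame, of 587 in all, is counted. Those medians rest on the few other sites, so on few genes with a copy, and do not describe the word in the linker. With ACCCTA, the last 2 were −0.52 and −1.10, and in whole transcripts −0.69 and −1.16. Without members with ACCCTA in the 3′ UTR, the last was −1.04. The alternatives without uncertain counts and without the 3′ UTR word were chosen after seeing the data.

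On the corepressor list (18 lower, 5 higher), 8 were higher with library totals only, 8 with the replicate block and 3 with offsets, and 7 lower and 2 higher passed against a fold of 1.2. On the list of other zinc finger genes, the 1 rise went to 0 with DESeq2, without robust fitting, with the 3 other scalings, with both other filters, in thinned libraries, against a fold of 1.2 and on leaving out any one library (0 to 0).

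Of 1035 alternative values for 61 tested genes (NSUN2, the ZNF and other zinc finger genes named, and 8 corepressors), 988 kept direction and call, 24 lost the call, 13 gained it and 10 reversed: with offsets and with block and offsets, ZNF224 gave 0.0086 and 0.0089, ZNF787 −0.38 and −0.38, ZNF865 −0.21 and −0.21, TRIM28 −0.31 and −0.31, and CHD3 −0.0074 and −0.0085. The cause was not tested. Among these 61 genes, only ZIK1 lost its call on leaving out a library. Depth limits members below about 1 CPM, such as ZNF20 and ZNF382.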
